A study of Mus musculus with 14 samples.

Results

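A set of 10 transcripts was selected because their counts separated hippocampal PV neurons of mice susceptible to social defeat from those of resilient mice, or because they overlap such a transcript. The selection used the susceptible and resilient columns of the count table, so the difference between these groups is given below as a description, without a test. There are 10 such genes among the 39017 genes of the table, and all 10 were among the 21298 genes that passed a filter on low counts. They had been grouped as noncoding transcripts, but the GENCODE annotation bears this out for only 4 of the 10 (4930500M09Rik, Gm26796, Gm15834 and Gm26723). Gm20691 is annotated as a processed pseudogene. The other 5 are annotated as protein coding: B930094E09Rik, Gm20662, the host genes Uhmk1 and Fam126b, and Xpo6. B930094E09Rik crosses the start of a gene on the opposite strand, as the antisense transcripts do, whereas Gm20662 runs along genes of its own strand.

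The libraries came from male mice on a C57BL/6 background, aged 8 to 12 weeks when the behavioural experiments began. In these mice, Cre recombinase driven from the Pvalb gene switched on the ribosomal protein L10a fused to EGFP. Translating ribosome affinity purification (TRAP) with an antibody to EGFP then recovered polysome-bound RNA from the tagged neurons. All mice of the 4 groups carried both alleles. The non-defeated group (n = 4) was kept without aggressors, whereas the susceptible (n = 3) and resilient (n = 4) groups underwent 10 days of chronic social defeat stress by CD-1 aggressors and were divided by a social interaction ratio below 1 or at and above 1. The input group (n = 3) was total hippocampal RNA of non-defeated mice taken before purification. Both hippocampi of 1 mouse made up a sample. PV interneuron markers were enriched: Pvalb stood at 1465 normalised CPM (counts scaled to the same library size) in non-defeated TRAP and 25.4 CPM in input, and all 7 of 7 PV interneuron markers were higher in TRAP than in input (adjusted p < 0.05, edgeR quasi-likelihood test). Of 5 markers of other interneurons, 2 were higher in TRAP as well, Npy (log2 fold change 2.79) and Sst (1.61), and 2 were lower. Totals ran from 64110214 to 94726962 counts per library. In such bulk samples, fewer cells of a type and less RNA per cell cannot be told apart.

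Long noncoding and antisense transcripts are made by RNA polymerase II and often start beside, or run across, a coding gene. Some are retained in the nucleus, others reach the cytoplasm and are found with ribosomes, and their abundance need not follow that of the coding gene. A library that does not keep strand records both partners as the same double-stranded cDNA, so that reads within bases shared by 2 genes cannot be assigned by sequence alone. The cDNA and library kits used here do not mark strand, and how the read counter treated overlapping genes is not given in the sources used here.

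Of the 7 short or noncoding transcripts, 6 fell into 3 arrangements. The first, with 3 members, runs head to head with a coding gene and crosses its start. 4930500M09Rik (chr1:170214860-170216422, plus strand, 1 exon of 1563 bp) overlaps the 5′ end of Uhmk1 (chr1:170193420-170215397, minus strand), a serine/threonine kinase with an RNA-binding motif, over 425 bp of exon, which is 27.2% of its exonic bases. B930094E09Rik (chr18:31609512-31610751, plus strand) crosses the start of Slc25a46, a carrier-family protein of the mitochondrial outer membrane, with 30.9% of its exonic bases shared. Gm26796 (chr12:80758406-80762793, plus strand, 3 exon blocks) covers the start of Ccdc177, a coiled-coil protein gene, with 49.3% shared.

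Gm20662 and Gm20691 lie along a coding gene on the same strand. Gm20662 (chr9:107996349-108045270, plus strand) joins exons of Cdhr4, a cadherin-related gene, and Ip6k1, an inositol hexakisphosphate kinase. Only 22 of its 1853 exonic bp lie outside other genes' exons, so that its level is uncertain. Gm20691 (chr3:68903820-68904152, minus strand, 333 bp) sits inside an intron of Ift80, a component of intraflagellar transport, and shares no exonic base with it.

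Gm15834 meets the 3′ end of a coding gene from the opposite strand (chr1:58505148-58523230, plus strand, 4616 exonic bp). It ends within the 3′ end of Fam126b (chr1:58522806-58586323, minus strand), a relative of hyccin, with 212 bp (4.59% of its exonic bases) shared. It starts 39 bp from Orc2, an origin recognition complex subunit that is transcribed away from it. Gm26723, a lincRNA of 787 exonic bp on chromosome 12, has no exonic base of its own, so that its level is uncertain. The remaining gene, Xpo6 (chr7:126101715-126200501, minus strand, 16920 exonic bp), encodes exportin 6, which carries actin with profilin out of the nucleus. It shares no exonic base with another gene, although 2 pseudogenes lie in its introns. Positions are those of GRCm38 (mm10) in GENCODE M21.

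**Figure D1:**
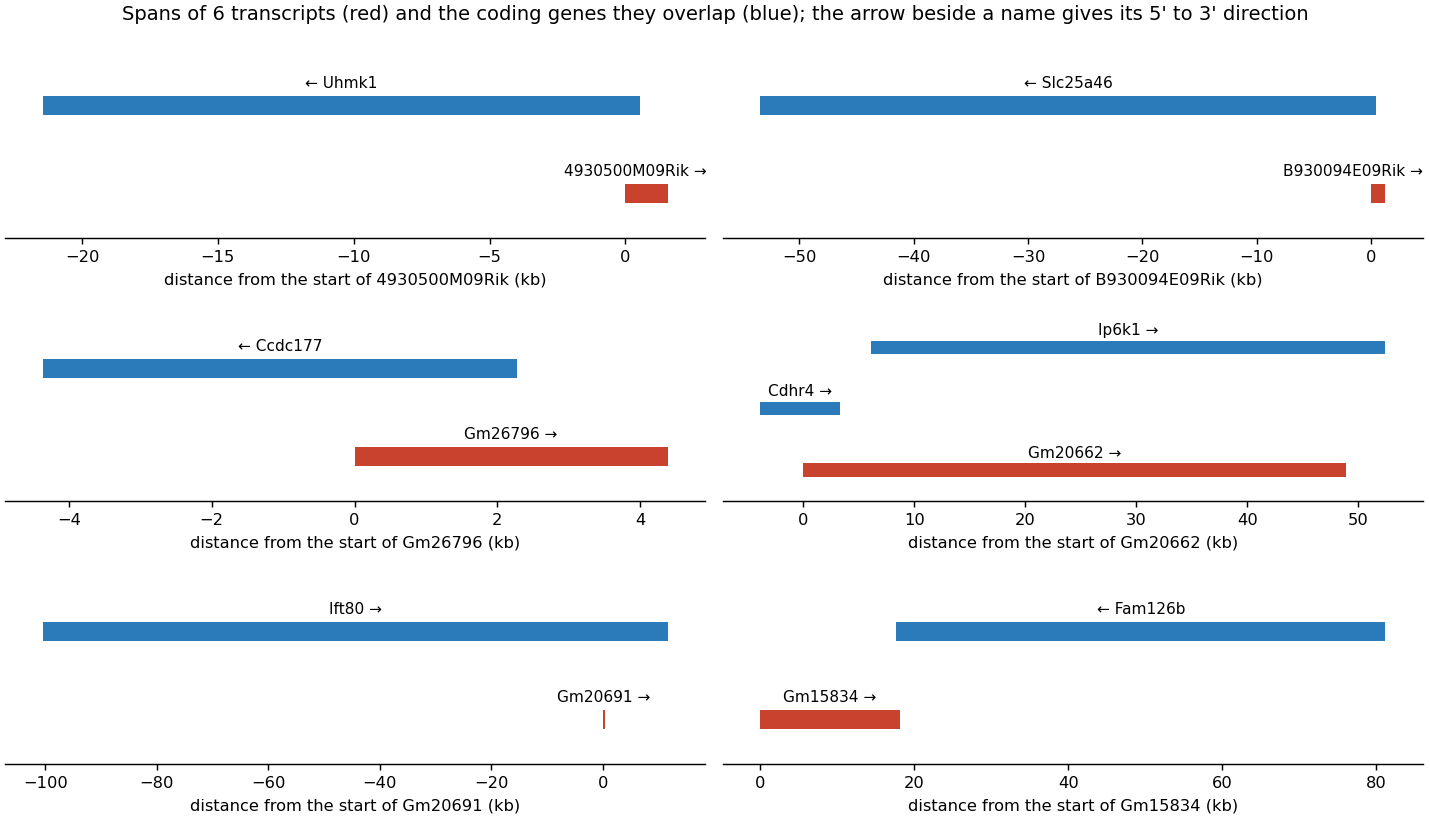
Spans of 6 transcripts (red) and the coding genes they overlap (blue), drawn to scale as distance in kb from the start of each transcript, with a separate scale in each panel. 4930500M09Rik, B930094E09Rik and Gm26796 cross the start of an oppositely transcribed gene, Gm20662 and Gm20691 run along genes of the same strand, and Gm15834 meets the 3′ end of a gene on the opposite strand.

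Promoter windows are shown for the 4 members that have one among the RefSeq sequences (GRCm38.p6; 250 bases before to 50 after the start, 5′ to 3′ on the gene's strand), because 3 of them also hold sequence of an overlapping transcript or the start of a neighbouring gene. All 300 bases of the Uhmk1 window (chr1:170215358-170215657, minus strand) lie within the exon of 4930500M09Rik, so this stretch belongs both to the antisense transcript and to the promoter of its host. The Gm15834 window (chr1:58504865-58505164, plus strand) holds the start of Orc2 as well, and the Fam126b window (chr1:58586284-58586583, minus strand) holds the start of Ndufb3, a subunit of mitochondrial complex I. Xpo6 is at chr7:126200452-126200751, minus strand. Capitals mark matches, on either strand, to the CCAAT box (CCAAT) and the GC box (GGGCGG).
Uhmk1: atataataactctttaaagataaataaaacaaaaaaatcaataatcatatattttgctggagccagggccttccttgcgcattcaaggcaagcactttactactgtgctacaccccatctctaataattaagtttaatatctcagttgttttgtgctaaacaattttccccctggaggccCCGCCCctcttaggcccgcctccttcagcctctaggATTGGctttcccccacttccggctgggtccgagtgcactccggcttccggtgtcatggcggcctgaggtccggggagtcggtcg
Gm15834: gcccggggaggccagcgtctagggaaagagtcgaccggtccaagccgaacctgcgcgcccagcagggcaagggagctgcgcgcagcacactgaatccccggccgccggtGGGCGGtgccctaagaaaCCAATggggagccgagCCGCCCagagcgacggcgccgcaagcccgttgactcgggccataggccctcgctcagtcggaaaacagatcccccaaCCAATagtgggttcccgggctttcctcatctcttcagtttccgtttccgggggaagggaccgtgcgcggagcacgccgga
Fam126b: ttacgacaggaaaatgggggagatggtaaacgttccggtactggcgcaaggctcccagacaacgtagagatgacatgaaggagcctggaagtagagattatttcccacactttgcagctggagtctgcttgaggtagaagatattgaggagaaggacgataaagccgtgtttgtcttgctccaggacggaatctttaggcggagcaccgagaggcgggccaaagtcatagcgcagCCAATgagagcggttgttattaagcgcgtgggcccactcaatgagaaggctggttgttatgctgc
Xpo6: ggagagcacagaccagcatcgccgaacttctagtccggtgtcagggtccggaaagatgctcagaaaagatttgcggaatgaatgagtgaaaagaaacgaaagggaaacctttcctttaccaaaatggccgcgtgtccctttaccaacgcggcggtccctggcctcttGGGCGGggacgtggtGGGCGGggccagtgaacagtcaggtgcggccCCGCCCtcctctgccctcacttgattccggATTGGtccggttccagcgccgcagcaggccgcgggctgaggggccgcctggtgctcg

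All 4 windows held a CCAAT match, against 37.4% of the 32851 windows in the collection. A GC box was found in 3 of the 4 (35.7% of all windows), with 1 match in Uhmk1, 2 in Gm15834 and 3 in Xpo6. None of the 4 held a TATA box (TATAAA, 13.6% of all windows) or a cAMP response element (TGACGTCA, 1.79%). CpG dinucleotides numbered 11 in the Uhmk1 window, 15 in Fam126b, 24 in Xpo6 and 31 in Gm15834, where the median window had 7.

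Of the 10 genes, 6 were lower in every susceptible library than in any resilient library, 2 were higher in every susceptible library, and 2 overlapped. Over all 21298 genes, 7.44% lay wholly below and 7.71% wholly above in the same comparison, but the members were picked for this property and their count carries no further weight. Those that were lower were 4930500M09Rik, B930094E09Rik, Gm26796, Gm20662, Gm20691 and Xpo6, that is all 3 head-to-head transcripts and both same-strand ones. Those that were higher were Gm15834 and Gm26723, both annotated as lincRNA. The host genes Uhmk1 and Fam126b overlapped.

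4930500M09Rik had the largest difference of the 10. It was at 2.24, 2.30 and 2.42 CPM in the susceptible libraries and at 5.18, 5.72, 5.75 and 6.43 CPM in the resilient ones. Non-defeated TRAP gave 4.43, 4.73, 5.69 and 5.72 CPM. The susceptible mean was 0.403 of the resilient mean, and the fitted log2 difference was -1.31. Leaving out any 1 of the 7 libraries kept that difference between -1.36 and -1.26. Its host Uhmk1 stood at 119, 137 and 158 CPM in susceptible and at 150, 152, 159 and 178 CPM in resilient libraries. Of the susceptible libraries 1 thus lay within the resilient range of Uhmk1, and the log2 difference was -0.21.

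Gm26796 was at 3.13, 3.44 and 4.08 CPM in susceptible libraries. Resilient libraries gave 6.23, 7.76, 8.13 and 8.28 CPM, and non-defeated ones 4.73, 5.56, 6.22 and 7.12 CPM. The 3 groups were ordered susceptible, non-defeated, resilient by their means, with no overlap between susceptible and the rest and with overlap between non-defeated and resilient. B930094E09Rik was at 8.04, 10.1 and 10.1 CPM in susceptible libraries, against 14.2, 17.5, 17.7 and 19.0 CPM in resilient libraries. Its non-defeated levels, 14, 15.2, 15.8 and 15.9 CPM, lay largely within the resilient range. The log2 differences between susceptible and resilient were -1.10 for Gm26796 and -0.86 for B930094E09Rik.

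Gm20662 was at 20.4, 20.4 and 22.7 CPM in susceptible libraries and at 35.4, 38.4, 42.7 and 46.5 CPM in resilient ones. Non-defeated TRAP spread more widely, at 29.2, 32.6, 41.4 and 43.9 CPM, and the susceptible mean was 0.520 of the resilient mean. The intronic pseudogene Gm20691 was the least abundant member by counts, with 86 to 287 reads in a library. It was at 1.18, 1.34 and 1.49 CPM in susceptible libraries and at 2.48, 2.53, 2.58 and 2.67 CPM in resilient ones, while non-defeated libraries gave 2.31, 2.36, 2.90 and 2.94 CPM. As a processed pseudogene it may share reads with its parent gene, and its level is uncertain for that reason. Xpo6 was at 43.2, 46.6 and 48.3 CPM in susceptible libraries, and its resilient levels of 63.7, 68.3, 70.6 and 79.2 CPM covered nearly the same range as the non-defeated levels of 63.3, 67.4, 74.3 and 76.0 CPM.

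The other direction was seen in Gm15834 and Gm26723. Gm15834 was at 5.55, 5.80 and 5.87 CPM in susceptible libraries. It was at 2.74, 2.97, 3.22 and 3.35 CPM in resilient libraries and at 3.70, 4.02, 4.14 and 4.32 CPM in non-defeated ones. The 3 groups did not overlap, and Gm15834 was the only member whose resilient and non-defeated libraries separated. Gm26723 was at 246, 308 and 322 CPM in susceptible libraries. Resilient libraries gave 160, 168, 177 and 189 CPM and non-defeated ones 176, 197, 219 and 222 CPM. The ratio of the susceptible to the resilient mean was 1.87 for Gm15834 and 1.68 for Gm26723. Fam126b, the host of Gm15834, was at 123, 125 and 127 CPM in susceptible and at 122, 126, 129 and 136 CPM in resilient libraries, with a log2 difference of -0.04.

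**Figure D2:**
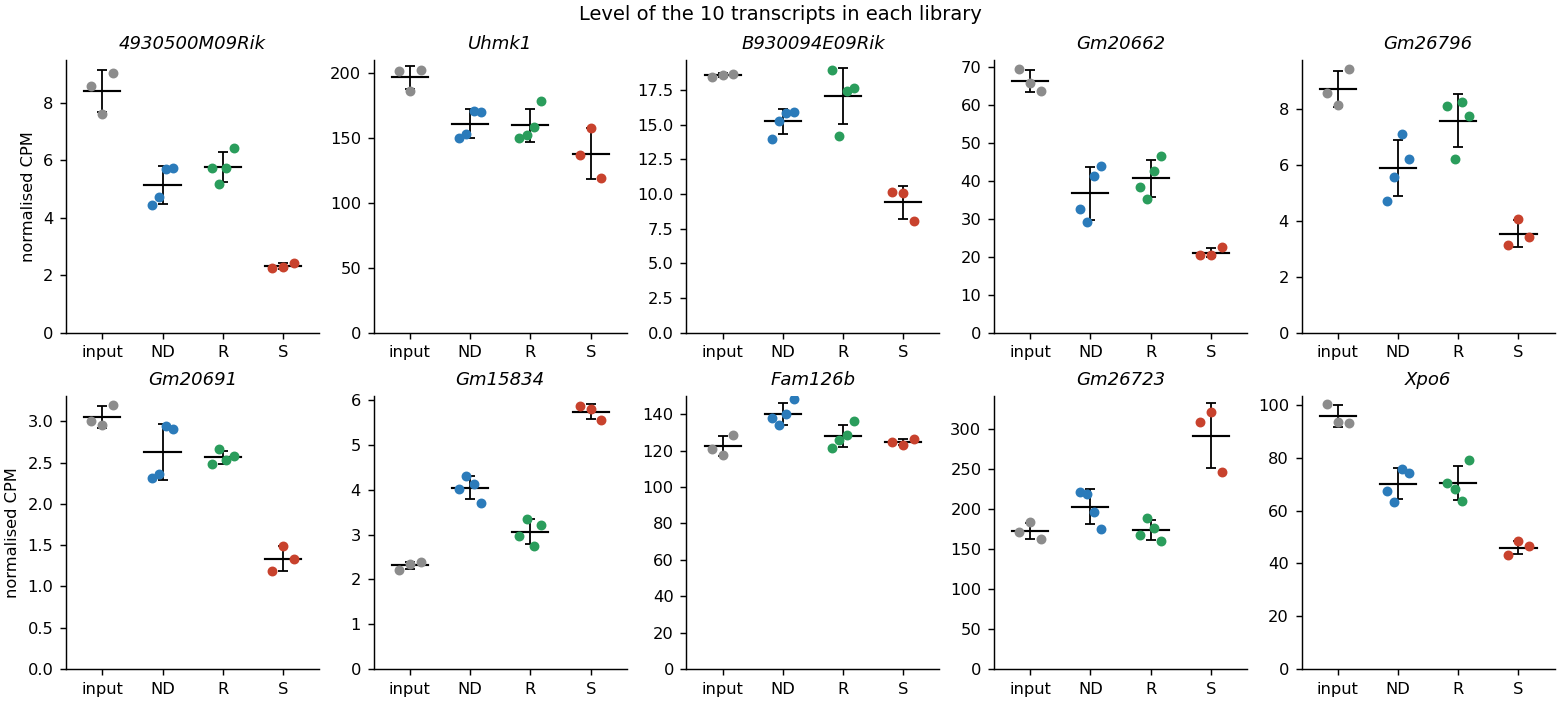
Normalised CPM of each of the 10 transcripts in input, non-defeated (ND), resilient (R) and susceptible (S) libraries, with a separate axis from 0 in each panel. Points are libraries, horizontal lines are means and bars are SD (n = 3, 4, 4 and 3). The susceptible points lie below all ND and R points for 6 genes and above them for Gm15834 and Gm26723, whereas they overlap the resilient points for Uhmk1 and Fam126b.

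Compared with non-defeated mice, the susceptible libraries stood apart for 9 members, 7 below and 2 above, Fam126b being the added one. Over all genes, 4.4% lay wholly below and 4.21% wholly above non-defeated. Against the 8 other TRAP libraries together, 6 members were wholly below and 2 wholly above, where 2.53% and 2% of all genes were. Resilient and non-defeated libraries overlapped for 9 of 10 members, Gm15834 alone lying wholly below, where 1.05% of all genes lay wholly below and 1.3% wholly above. These comparisons use the libraries on which the members were chosen and share groups with each other. The log2 differences from non-defeated were -1.15, -0.69, -0.73, -0.80, -0.98 and -0.61 in susceptible mice for 4930500M09Rik, B930094E09Rik, Gm26796, Gm20662, Gm20691 and Xpo6. In resilient mice the same 6 had log2 differences of 0.16, 0.16, 0.36, 0.15, -0.04 and 0.00 from the same non-defeated libraries. For Gm15834 the pair of values was 0.50 in susceptible and -0.40 in resilient mice, and for Gm26723 it was 0.52 and -0.23.

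Non-defeated TRAP against input is the comparison that the selection did not use, and it asks whether a transcript is more or less abundant in the polysome fraction of PV neurons than in the whole hippocampus. In it, 6 members were lower in TRAP, 2 were higher and 2 did not pass the test, where 27.6% of all genes tested were lower and 27.4% higher (adjusted p < 0.05, edgeR quasi-likelihood test with Benjamini-Hochberg adjustment). Gm20662 was lowest relative to input, at 36.8 ± 7.0 CPM in TRAP and 66.3 ± 2.9 CPM in input (SD, n = 4 and 3; log2 fold change -0.85, SE 0.13, edgeR adjusted p = 8.3e-05). Nearly all its exonic bases are shared with other genes, so this value may in part be theirs. 4930500M09Rik was at 5.15 ± 0.66 CPM in TRAP and 8.40 ± 0.74 CPM in input (log2 fold change -0.71, SE 0.13, edgeR adjusted p = 0.00041). Gm26796 fell by 0.56 on the log2 scale (SE 0.16, edgeR adjusted p = 0.0069) and Xpo6 by 0.45 (log2 fold change -0.45, SE 0.09, edgeR adjusted p = 0.00071).

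Gm15834 was the member most enriched in TRAP, with 4.04 ± 0.26 CPM against 2.31 ± 0.08 CPM in input (SD, n = 4 and 3; log2 fold change 0.81, SE 0.13, edgeR adjusted p = 9.8e-05). Its host Fam126b was higher by 0.19 (SE 0.07, edgeR adjusted p = 0.025), and Uhmk1 was lower (log2 fold change -0.29, SE 0.10, edgeR adjusted p = 0.021). B930094E09Rik passed narrowly (log2 fold change -0.28, SE 0.11, edgeR adjusted p = 0.047), and this call was lost in 10 of 13 alternative settings. The Uhmk1 call was lost in 5 and the Fam126b call in 4 of the 13. Gm20691 (log2 fold change -0.22, edgeR adjusted p = 0.23) and Gm26723 (log2 fold change 0.23, edgeR adjusted p = 0.076) did not pass, although Gm26723 was called in 3 of the 13. Among the 2071 annotated noncoding genes tested, 24.9% were lower in TRAP and 20.4% higher.

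For all 8 members that separated, the sign of the difference between susceptible and resilient was the sign of the difference between non-defeated TRAP and input, a comparison with no library in common. The 6 that were lower in susceptible mice had negative TRAP values, from -0.85 to -0.22, and the 2 that were higher had positive ones, 0.81 and 0.23. Of these values, those of Gm20691 (-0.22) and Gm26723 (0.23) did not pass the test, and the B930094E09Rik call was lost in 10 of 13 settings. The 2 signs were shared by 57.3% of all genes tested and by 73.4% of the 395 other genes called between susceptible and resilient (65.6% of those lower and 80.0% of those higher in susceptible). The members therefore followed a sign relation that was also common among other called genes.

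**Figure D3:**
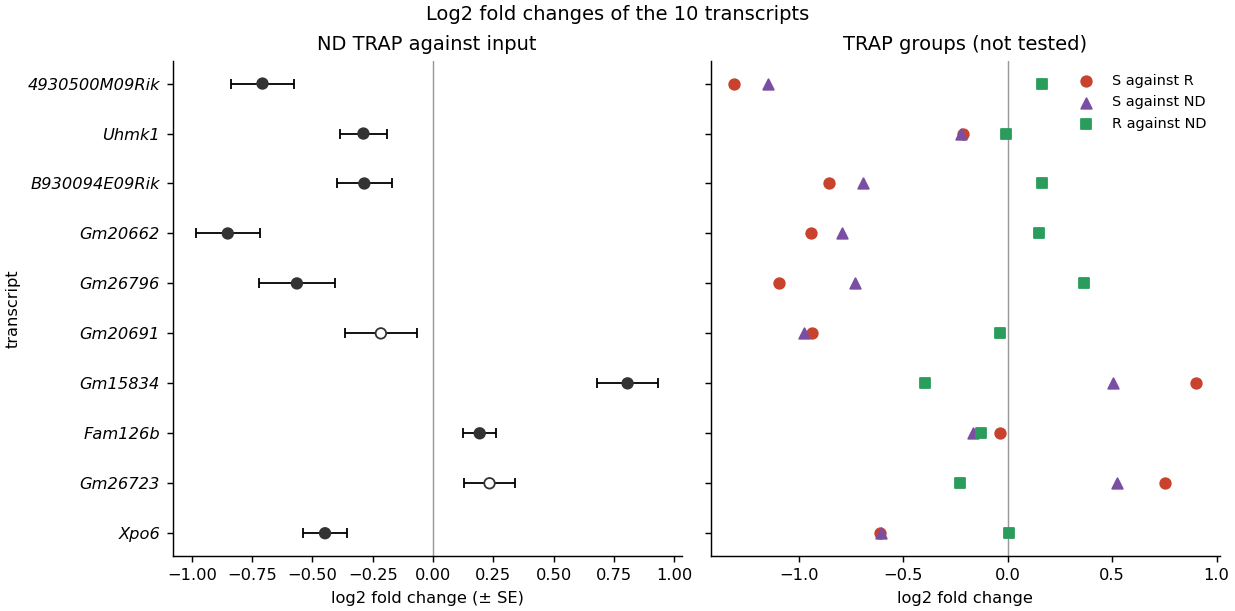
Log2 fold changes of the 10 transcripts. Left, non-defeated TRAP against input with SE bars (filled points, adjusted p < 0.05). Right, the 3 differences between TRAP groups, which share libraries with the selection and carry no test. 4930500M09Rik is at -1.31 for susceptible against resilient and -0.71 for TRAP against input, and Gm15834 is at 0.90 and 0.81.

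The counts of each of 6 transcripts were also set against those of the coding gene it overlaps or lies in. Between susceptible and resilient mice these ratios restate differences on which the transcripts were chosen and are a description only. For 100 counts of Uhmk1 there were 1.71 ± 0.30 counts of 4930500M09Rik in susceptible, 3.61 ± 0.17 in resilient, 3.19 ± 0.20 in non-defeated and 4.27 ± 0.20 in input libraries (SD, n = 3, 4, 4 and 3). The susceptible ratio was 0.474 of the resilient ratio, and it stayed between 0.428 and 0.509 when single libraries were left out. For 100 counts of Fam126b there were 4.60 ± 0.19 counts of Gm15834 in susceptible and 2.40 ± 0.22 in resilient libraries, a quotient of 1.92.

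The quotient was 0.671 for B930094E09Rik to Slc25a46, 0.581 for Gm26796 to Ccdc177, 0.697 for Gm20662 to Ip6k1 and 0.584 for Gm20691 to Ift80. Between non-defeated TRAP and input, which the selection did not use, 5 of 6 ratios differed (exact permutation test, 2-sided, p = 0.0286 for each, the smallest that 4 against 3 libraries allow; adjusted p = 0.0343 over 6 pairs). How many ratios of other gene pairs differ was not counted, and 27.6% of all genes tested were lower and 27.4% higher in this contrast. Except for Gm20691 and Ift80, the partners share exonic bases, whose reads may have been counted for either gene. The ratio was lower in TRAP for 4930500M09Rik (quotient 0.747), B930094E09Rik (0.895) and Gm20662 (0.801), and higher for Gm20691 (1.29) and Gm15834 (1.53). Ift80 itself was lower in TRAP (log2 fold change -0.58, edgeR adjusted p = 0.010). Gm20691 was not called (log2 fold change -0.22, edgeR adjusted p = 0.23), so its higher ratio was not a higher level of the transcript. The quotient for Gm26796 was 0.90 (exact permutation p = 0.143).

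**Figure D4:**
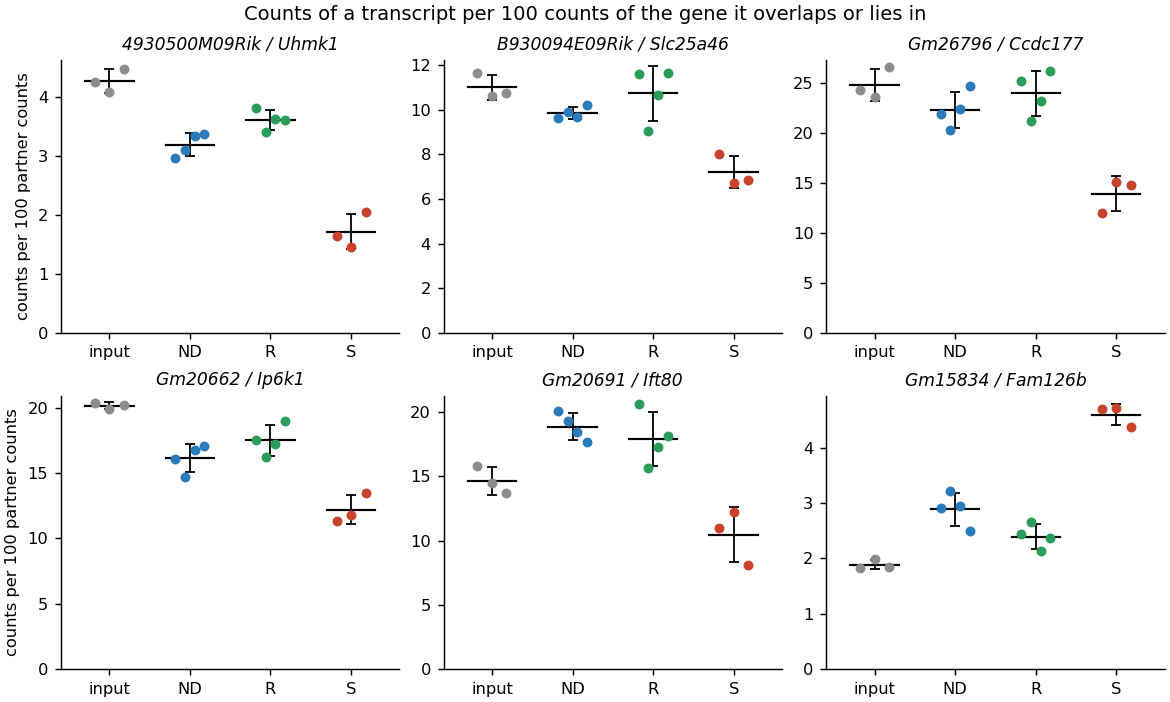
Counts of each transcript per 100 counts of the coding gene it overlaps or lies in, by library, with mean and SD and a separate axis from 0 in each panel (input, ND, R and S; n = 3, 4, 4 and 3). Susceptible libraries lie below all resilient ones in 5 pairs and above them for Gm15834 to Fam126b.

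The overlapping and neighbouring genes themselves were tested between susceptible and resilient mice, since they were chosen by position. However, Ip6k1 and Cdhr4 share 942 and 889 exonic bp with Gm20662, Slc25a46 shares 383 bp with B930094E09Rik, and Ccdc177 shares 1121 bp with Gm26796. Reads within shared bases may have been counted for either gene, so the tests of these genes are not independent of the selection. Of 6 non-member genes that overlap a member other than Gm26723 and passed the count filter, 1 was called. Of the 16 nearest non-overlapping genes 2 were, where 1.89% of all genes were called (edgeR quasi-likelihood test, adjusted p < 0.05). Ip6k1 was lower in susceptible mice, at 174 ± 6 CPM against 232 ± 16 CPM (SD, n = 3 and 4; log2 fold change -0.42, SE 0.10, edgeR adjusted p = 0.045). Ndufb3, which starts 61 bp from Fam126b on the other strand, was higher (log2 fold change 0.44, edgeR adjusted p = 0.047). Gm18588, 1061 bp from Gm20691, was lower (log2 fold change -0.56, edgeR adjusted p = 0.046). Slc25a46 (log2 fold change -0.28, edgeR adjusted p = 0.094) and Ccdc177 (-0.31, adjusted p = 0.16) did not pass.

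No difference was called for Ift80 (-0.14, edgeR adjusted p = 0.69), Cdhr4 (0.67, adjusted p = 0.51), the Xpo6 intronic pseudogene Gm17136 (-0.01, adjusted p = 0.99) or Orc2 (0.03, adjusted p = 0.91), the gene whose start is shared with Gm15834. The 3 calls depended on the setting. As many of these genes, 3, were called with DESeq2, with at least 10 counts required in every library and with sample number as a covariate, whereas none was called when only the 11 TRAP libraries, or only the 2 groups, were fitted, or with an offset for GC content, and 1 was called with RLE size factors. Over all genes the number called likewise ranged from 0 in a fit of the 2 groups alone, by edgeR, where 3494 genes had an unadjusted p < 0.05, to 550 higher and 596 lower with sample number as a covariate.

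Of the 2067 annotated noncoding genes tested that are no members, 32 were called between susceptible and resilient, 11 higher and 21 lower, which is 1.55% against 1.89% of all genes. With the 4 noncoding members, which were chosen on this contrast, the share was 1.74% of 2071. Noncoding genes that start close to an oppositely transcribed coding gene were counted separately. The members 4930500M09Rik, lower in susceptible mice, and Gm15834, higher in them, both start in this way. Among the 706 other noncoding genes starting within 1000 bp of such a start, 0 were called higher and 5 lower by edgeR, with a median log2 difference of 0.09. Among the 1361 other noncoding genes, 11 were called higher and 16 lower, and the median was 0.05.

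Within groups, after the group means were subtracted, the members that moved the same way were positively correlated across the 11 TRAP libraries, some of them only weakly. For the 16 pairs of members that moved the same way the Pearson r of log2 CPM was between 0.08 and 0.91, with a median of 0.61, and it was positive in all 16. For the 12 pairs that moved opposite ways it ran from -0.78 to 0.07 with a median of -0.35. The closest pair was 4930500M09Rik with Gm20662 (r = 0.91), and Gm26723 ran opposite to both (r = -0.78 and -0.77). B930094E09Rik was hardly correlated with Gm20691 (r = 0.08) and Xpo6 (r = 0.19). Fam126b, whose groups overlapped, varied with Gm20662 (r = 0.83) and with 4930500M09Rik (r = 0.70). The 11 libraries share normalisation and have unequal depth and base composition, and these values are a description. The share of positive values among pairs of other genes was not counted.

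The non-member gene most like a member by this measure, out of 21281 compared, was Shoc2 for 4930500M09Rik (r = 0.98), Tmem106b for B930094E09Rik (0.98) and Aldh1a2 for Gm20662 (0.96). It was Snx4 for Gm20691 (0.97), Gm15236 for Gm15834 (0.95), Tmem63c for Fam126b (0.93), Csnk2a2 for Gm26723 (0.95) and Dock6 for Xpo6 (0.92). The level of Gm15236 was low, with a mean of 0.284 CPM over the 11 TRAP libraries. Between 1.12% and 5.35% of all genes compared had r above 0.7 with a given member, so that such likeness was not rare with 11 libraries in 3 groups. Between susceptible and resilient, the log2 differences of these 8 genes ran from -0.45 for Tmem63c to 0.19 for Csnk2a2.

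**Figure D5:**
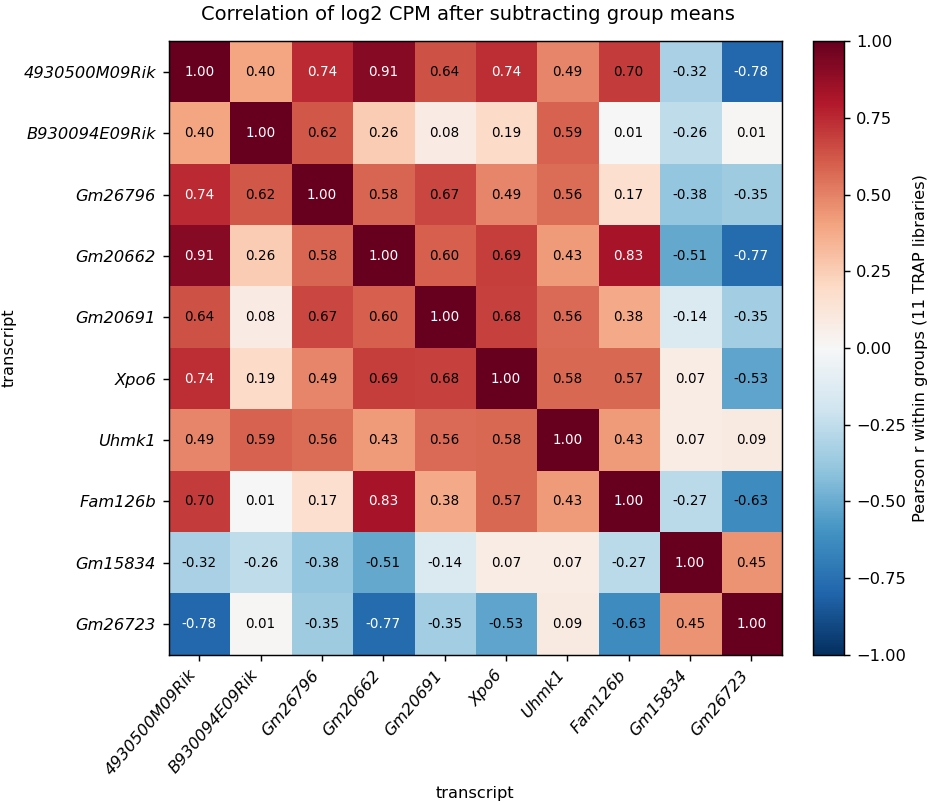
Pearson r of log2 CPM between members over the 11 TRAP libraries after group means were subtracted, from -1 (blue) to 1 (red). The 6 transcripts that were lower in susceptible mice form a block of positive values, from 0.08 to 0.91, and Gm26723 has negative values with most of them, down to -0.78.

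Several measures of the libraries moved with the same groups. The summed level of 4 haemoglobin genes was 885 to 1217 CPM in susceptible libraries, 127 to 588 CPM in resilient, 114 to 240 CPM in non-defeated and 774 to 981 CPM in input, and all 4 were called higher in susceptible than in resilient mice. The summed level of 7 nuclear retained long noncoding RNAs, Malat1 foremost, was 100 to 166 CPM in susceptible, 49.5 to 77.6 CPM in resilient, 55.1 to 99.2 CPM in non-defeated and 707 to 1061 CPM in input. None of the 7 was called between susceptible and resilient, and 4 had an unadjusted p < 0.05 (edgeR). The summed level of either list was above all resilient libraries in the 3 susceptible libraries and above all non-defeated libraries in input. Summed levels of PV interneuron, other interneuron, excitatory, thalamic, astrocyte, oligodendrocyte, microglial and endothelial markers overlapped between susceptible and resilient libraries, and none of these 40 genes was called. Of the 5 other interneuron markers, 2 (Cck and Reln) had an unadjusted p < 0.05 (edgeR), both higher in susceptible mice. No marker of the remaining lists did. The median log2 difference was 0.48 for other interneuron and -1.27 for thalamic markers, and between -0.09 and 0.13 for the remaining lists.

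Over all genes, base composition also moved with the direction of change. When the genes tested were divided into 5 equal bins by the GC content of their longest transcript, 86 were called higher and 10 lower in susceptible mice in the lowest bin, and 18 higher and 67 lower in the highest. Gm15834 (43.9% GC) and Gm26723 (39.4%), which were higher, were in the lowest bin, together with Fam126b and with Xpo6 (42.9%), which was lower. Of the other members that were lower, 4930500M09Rik (51.6%) was in the middle bin, Gm20662 (54.4%) in the bin above it, and B930094E09Rik (56.6%), Gm26796 (61.6%) and Gm20691 (61.0%) in the highest. With an offset for GC content in each library the 6 lower members kept log2 differences of -1.30 to -0.66, and Gm15834 and Gm26723 kept 0.87 and 0.68. The part of haemoglobin RNA and nuclear RNA in the members' differences was not tested.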

How the data were processed

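TRAP and input libraries were made from 1 ng of RNA with SMART-Seq v4 and Nextera XT and sequenced as 150 bp single reads. The authors trimmed reads with fastp, aligned them to mm10 with STAR (2.5.3a in the submitters' processing notes) and counted genes with HTSeq; its annotation, strand setting and treatment of overlaps are not given in the sources used here. The deposited values are raw counts per gene. Here 37693 of 39017 identifiers were named from GENCODE M21 (unnamed rows held 0.824% of counts). Counts were filtered on group (filterByExpr), scaled by TMM and fitted in edgeR 4.0.16 (R 4.3.3) with 4 groups and all 14 libraries; p-values are 2-sided with Benjamini-Hochberg adjustment over 21298 genes, and the procedure was tested on simulated data. CPM are normalised by TMM. Log2 CPM for correlations used a prior count of 2. The members and lists were chosen with earlier results of these data known: members, genes overlapping them, nearest genes (named where called), the most correlated gene of each and fixed marker lists are named. No pair of replicates differed by less than sampling noise (lowest chi-square per degree of freedom 13.4 over 18 pairs). Labels give 1 sample number per library and no batch. Alternatives were DESeq2 1.42.0, RLE and total-count scaling, other filters, other sample sets, sample number as a covariate, leaving out each library and, added after the data were seen, a GC offset. Exact tests used SciPy. Some genes that the naming rule selects are not reported here.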

Additional observations from a re-analysis of the deposited data

How the results depend on the processing

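All 8 members that separated kept the direction of their difference between susceptible and resilient in every alternative run; Fam126b moved to a log2 difference of -0.15 with the GC offset. Leaving out a library cannot make 2 separate groups overlap. The number of members without overlap could therefore only stay or rise, and it carries no weight as a check. Between susceptible and resilient it was 8 to 9 when single libraries were left out. For susceptible it was 9 to 10 against non-defeated and 8 to 9 against the 8 other TRAP libraries. For resilient against non-defeated it was 1 to 3, and 2 with RLE. In non-defeated TRAP against input, 1 member was higher without a filter on low counts, and 1 to 2 were higher and 4 to 5 lower when single libraries were left out (1 without input 12 or 13). Calls over all genes between susceptible and resilient depended on the setting, and the cause was not tested. Genes called higher and lower numbered 217 and 186, with 36 noncoding and 3 overlapping or neighbouring genes. They were 523 and 536 (86 noncoding) with DESeq2, 550 and 596 (88) with sample number as a covariate, 58 and 68 (14, and 0 neighbours) without a filter, 35 and 78 (19, and 0) with the GC offset, 0 and 1 (1, and 0) with the 11 TRAP libraries, and 0 and 0 (0, and 0) with 2 groups; 1 neighbour was called with RLE. Each of the 7 libraries moved the counts over all genes by over 1.5 times when left out: 2 to 684 genes were called higher, 4 to 426 lower, 1 to 88 noncoding and 0 to 1 neighbours. No paired analysis was possible because the groups share no sample numbers. A low count limits Gm20691 most.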

Other observations

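Normalised per kilobase of exon, the mean levels of the members in non-defeated TRAP ran from 0.876 CPM per kb for Gm15834 to 258 CPM per kb for Gm26723. Gm20662 (19.8) and Uhmk1 (19.9) had nearly the same level per kb, although their CPM differed more. The levels of Gm20662 and Gm26723 are uncertain because nearly all or all of their exonic bases are shared. None of the 30 groups of 4 libraries examined (the members and genes they overlap, in non-defeated and resilient mice) held a library that Dixon's test would set apart.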
